A study of Homo sapiens with 12 samples.

Results

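FOS, FOSB, FOSL1, FOSL2, JUN, JUNB, JUND, ATF3, EGR1 and IER3 are 10 genes of the immediate early response. They were chosen by symbol from the 26485 genes of the expression tables, and each symbol matched 1 gene. Their RNA was read in spheroids of 3 lines made from DU145, an established prostate cancer cell line. All 3 lines carry the Crispr/Cas9 knock-out of ITGA2, the gene of the α2 subunit of the collagen receptor α2β1 integrin, in a population selected after transfection with the editing vector. DU145KO was not transfected further, DU145KO+α2 was stably transfected with α2 integrin cDNA in the pAWneo2 plasmid, and DU145KO+vector with the empty plasmid. DU145KO is therefore α2 negative without having gone through the second transfection, and no line with the intact gene was among the 12 samples analysed. The transfected lines were maintained with geneticin, which the study does not state for DU145KO. In comparisons with DU145KO the second transfection and this drug cannot be told apart. Spheroids were seeded at 8000 cells each and kept without serum until RNA was extracted after 72 hours. Each line had 4 samples, named here by their replicate numbers 1 to 4. The study counts independent biological replicates, and what a shared number stands for across lines (a culture day, a sequencing lane or only a label) is not given in the sources used here.

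Immediate early genes are transcribed within minutes of a stimulus, from transcription factors already in place, and their RNAs are short-lived. FOS and JUN family proteins pair through leucine zippers to form AP-1, which binds DNA at AP-1 sites, and ATF3 pairs with JUN proteins. EGR1 is a zinc finger factor induced by the same MAP kinase signals, largely through serum response factor (SRF) at CArG boxes in its promoter, and IER3 is an early response gene linked to survival and MAP kinase signalling. In prostate cancer cells AP-1 and EGR1 are known as regulators of growth, invasion and matrix protease genes.

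The spread of the genes over replicate numbers was largest for FOS, FOSB, EGR1 and JUNB, so their promoters are shown first. RefSeq promoters (GRCh38.p14, 300 bases around the annotated start) were found for 8 of the 10 genes, ATF3 with 2 starts, and not for FOSL1 and IER3. They were searched on both strands for the CArG box (CC, a run of A and T bases, GG), the TATA element TATAAA, the CRE TGACGTCA, the AP-1 site TGACTCA and the EGR1 site GCGTGGGCG. Capitals mark the matches, and all 4 promoters lie on the plus strand, written 5′ to 3′.
FOS, chr14:75278578-75278877: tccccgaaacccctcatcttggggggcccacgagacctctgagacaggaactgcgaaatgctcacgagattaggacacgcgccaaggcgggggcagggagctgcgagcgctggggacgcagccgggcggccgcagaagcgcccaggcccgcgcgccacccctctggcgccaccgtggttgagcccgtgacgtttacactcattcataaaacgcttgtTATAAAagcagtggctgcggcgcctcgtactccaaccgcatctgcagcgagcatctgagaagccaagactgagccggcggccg
FOSB, chr19:45467746-45468045: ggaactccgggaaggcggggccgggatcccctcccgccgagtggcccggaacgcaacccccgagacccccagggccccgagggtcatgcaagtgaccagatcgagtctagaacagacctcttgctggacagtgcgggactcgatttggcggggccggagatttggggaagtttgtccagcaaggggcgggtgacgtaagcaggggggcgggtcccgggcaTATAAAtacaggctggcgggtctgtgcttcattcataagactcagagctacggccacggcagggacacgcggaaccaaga
JUNB, chr19:12791236-12791535: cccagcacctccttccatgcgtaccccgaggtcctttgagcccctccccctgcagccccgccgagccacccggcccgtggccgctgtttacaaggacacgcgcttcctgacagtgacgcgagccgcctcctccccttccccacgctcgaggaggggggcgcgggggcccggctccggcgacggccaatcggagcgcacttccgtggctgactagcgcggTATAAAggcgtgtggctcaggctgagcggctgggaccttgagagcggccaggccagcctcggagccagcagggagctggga
EGR1, chr5:138465229-138465528: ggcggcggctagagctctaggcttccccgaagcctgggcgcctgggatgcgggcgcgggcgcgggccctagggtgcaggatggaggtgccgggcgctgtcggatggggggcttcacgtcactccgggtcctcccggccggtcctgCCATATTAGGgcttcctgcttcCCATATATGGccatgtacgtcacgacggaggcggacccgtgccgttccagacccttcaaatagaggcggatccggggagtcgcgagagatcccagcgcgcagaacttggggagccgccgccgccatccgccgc
FOS, FOSB and JUNB shared TATAAA at nearly the same distance from the start, at −33, −30 and −31. EGR1 lacked these letters and held a pair of CArG boxes, at −105 and −83. Among all 35116 RefSeq promoters of this length, 11.5% held TATAAA and 1.29% a CArG box. Outside these 4 genes, TATAAA was at −230 of the second ATF3 start, the CRE at −200 of JUND (1.85% of all promoters) and the AP-1 site 4 bases after the start of FOSL2 (4.95%). JUN held none of the 5 motifs, and the EGR1 site (0.795%) was in none of the promoters of the 8 genes. A match is a run of letters and was not tested as a site. Variants of these letters and sequence outside the 300 bases were not searched, so a gene without a match may still hold such a site.

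In hg38 the genes lie on 7 chromosomes, JUN and ATF3 on chromosome 1, FOSL2 on 2, EGR1 on 5, IER3 on 6, FOSL1 on 11, FOS on 14, and FOSB, JUNB and JUND on 19. Counts are uniquely aligned reads per gene. JUNB is the gene of the 10 whose exons overlap another counted gene, HOOK2 on the opposite strand, over 14.2% of its exon bases. The library kit keeps the strand, but whether the counting used it is not given, so reads in that stretch cannot be assigned with certainty.

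The 12 samples had between 13948734 and 19988111 counted reads, and 3 counts in a sample correspond to 0.152 to 0.216 CPM (read counts relative to the TMM-adjusted library size), a floor that covers counting error only. The lowest count of any of the 10 genes in any sample was 15, for FOSB in DU145KO+vector number 3. ITGA2 was at 258 to 332 CPM in DU145KO+α2 and at 13.0 to 25.7 CPM in the 8 samples of the α2 negative lines, so the labels of the α2 status held in every sample. The 5 epithelial markers (EPCAM, KRT8, KRT18, KRT19, CDH1) were detected at a summed 854 to 1570 CPM, the prostate luminal markers KLK3 and KLK2 had no count in any sample, and 2 of 6 fibroblast markers and 3 of 6 immune and endothelial markers had enough counts to be tested. In bulk RNA, fewer cells that express a gene and less RNA per cell cannot be told apart.

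Per length, the level of the genes was compared with the RPKM values deposited by the authors. JUND had the highest median over the 12 samples (46.6 RPKM, range 31.2 to 58.5), followed by JUNB (41.5, 33.6 to 102) and EGR1 (35.3, 23.1 to 150). FOSL2 (25.2 RPKM), IER3 (21.5) and JUN (18.4) came next, then FOS (13.4, range 7.19 to 102), FOSL1 (12) and ATF3 (11.2). FOSB was the lowest at 0.501 RPKM (0.227 to 4.34). The ranges of neighbours in this order overlapped except those of ATF3 and FOSB. JUND, the JUN family member usually expressed without stimulation, headed the order, and FOSB, FOS and EGR1 had the widest ranges.

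**Figure D1:**
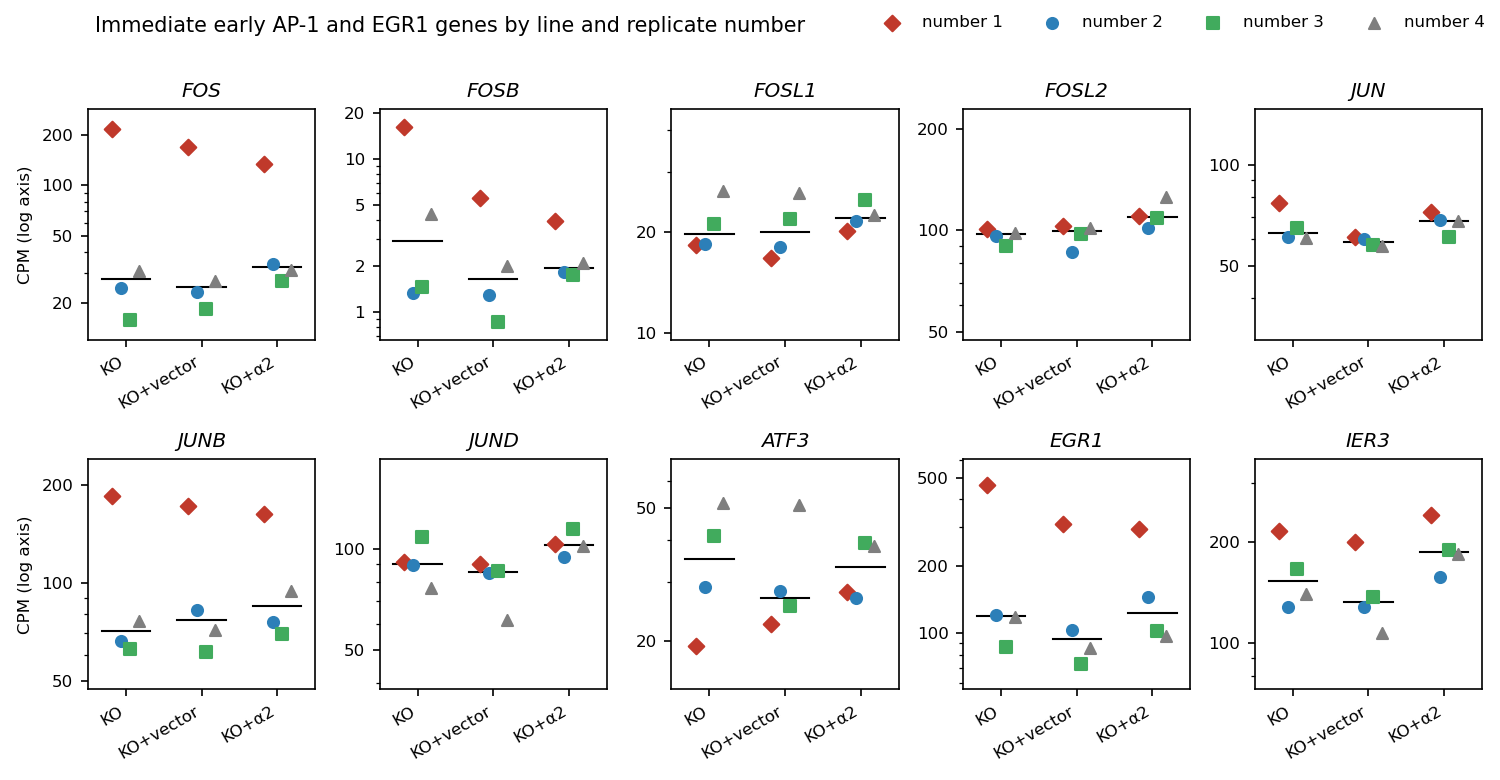
Level of each of the 10 genes in CPM (log axis, its own range in each panel) in the 4 samples of DU145KO (KO), DU145KO+vector and DU145KO+α2. Symbols and colours give the replicate number and the black line is the median of the 4 samples. FOS, FOSB, JUN, JUNB, EGR1 and IER3 have their number 1 sample on top in each line, and FOSL1 has it at the bottom.

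Among the FOS family, which supplies the AP-1 partners that cannot pair with themselves, FOS varied most. FOS was at 218, 24.5, 15.7 and 31.1 CPM in numbers 1 to 4 of DU145KO, at 168, 23.1, 18.4 and 26.8 CPM in DU145KO+vector, and at 134, 34.2, 27.0 and 31.5 CPM in DU145KO+α2. In each line number 1 stood apart from numbers 2 to 4. Number 1 was 9.18 times the mean of the others in DU145KO, 7.38 times in DU145KO+vector and 4.35 times in DU145KO+α2. FOSB, a close relative of FOS, was at 16.3, 1.34, 1.47 and 4.39 CPM in DU145KO, at 5.59, 1.29, 0.859 and 2 CPM in DU145KO+vector, and at 3.91, 1.82, 1.76 and 2.09 CPM in DU145KO+α2. It shared the high number 1, at 6.80, 4.04 and 2.07 times the mean of the others in the same order of lines. Whether these folds differ between lines could not be tested, since each line has 1 sample of each number.

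FOSL1 and FOSL2 encode the Fra proteins, which usually respond later than FOS, and neither had a number 1 set far apart. FOSL1 was at 18.3, 18.3, 21.1 and 26.4 CPM in DU145KO, at 16.7, 18, 21.9 and 26.1 CPM in DU145KO+vector, and at 20.1, 21.6, 24.8 and 22.3 CPM in DU145KO+α2. Its lowest sample was number 1 in each line, opposite to FOS and FOSB. FOSL2 was at 101, 96.6, 89.9 and 98.0 CPM in DU145KO, at 103, 86.3, 97.4 and 101 CPM in DU145KO+vector, and at 110, 101, 109 and 126 CPM in DU145KO+α2. FOSL2 was the steadiest of the FOS family, with number 1 as its highest sample in DU145KO and DU145KO+vector by 1.07 and 1.08 times the mean of the others, and all 4 samples of DU145KO+α2 were above the highest of DU145KO.

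In the JUN family, which forms AP-1 with FOS proteins or with itself, JUNB was the gene whose number 1 stood apart. JUNB was at 185, 66.3, 62.8 and 76.3 CPM in DU145KO, at 172, 82.6, 61.2 and 71.6 CPM in DU145KO+vector, and at 162, 75.7, 69.8 and 94.7 CPM in DU145KO+α2. Number 1 was 2.70, 2.40 and 2.03 times the mean of the others. JUN was at 76.7, 60.9, 64.6 and 60.4 CPM in DU145KO, at 60.7, 60.3, 57.5 and 57.5 CPM in DU145KO+vector, and at 72.5, 68.5, 61.1 and 67.8 CPM in DU145KO+α2. Its number 1 was the highest in each line too, by 1.24, 1.04 and 1.10 times the mean of the others, and every DU145KO+α2 sample was above every DU145KO+vector sample. JUND was at 91.4, 89.6, 109 and 76.8 CPM in DU145KO, at 90.5, 84.6, 86.0 and 61.6 CPM in DU145KO+vector, and at 104, 95, 115 and 102 CPM in DU145KO+α2. The DU145KO+α2 and DU145KO+vector samples of JUND did not overlap either, and number 4 was its lowest sample in both α2 negative lines.

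ATF3, a stress-responsive partner of JUN proteins, ran the other way. It was at 19.4, 29.0, 41.1 and 51.7 CPM in DU145KO, at 22.5, 28.3, 25.4 and 51.0 CPM in DU145KO+vector, and at 28.1, 26.8, 39.1 and 38.3 CPM in DU145KO+α2. Number 1 was the lowest sample in the α2 negative lines, at 0.477 and 0.646 times the mean of the others, and lay within their range in DU145KO+α2. EGR1 was at 467, 121, 86.6 and 119 CPM in DU145KO, at 309, 103, 72.7 and 85.9 CPM in DU145KO+vector, and at 294, 146, 102 and 97.6 CPM in DU145KO+α2. Like FOS it was set apart by number 1, at 4.29, 3.54 and 2.56 times the mean of the others. IER3 was at 215, 128, 166 and 140 CPM in DU145KO, at 200, 128, 137 and 107 CPM in DU145KO+vector, and at 240, 157, 189 and 183 CPM in DU145KO+α2. It combined a higher number 1 (1.49, 1.61 and 1.36 times) with a DU145KO+α2 sample above the DU145KO+vector and DU145KO samples at every number.

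The first comparison asked how far the genes differed between replicate numbers within the 3 lines. The level of 8 of the 10 genes differed between numbers (edgeR's quasi-likelihood F-test of the number in a model with line, Benjamini-Hochberg adjusted p below 0.05), against 35.7% of all 14732 genes tested. In order of adjusted p these were JUNB (8.32e-06), IER3 (4.18e-05), EGR1 (0.000545), FOS (0.000595), FOSL1 (0.00359), FOSB (0.00372), JUND (0.0205) and ATF3 (0.0307), while FOSL2 (0.0891) and JUN (0.128) missed the threshold. JUNB, IER3, EGR1, FOS and FOSB were highest in number 1, a combination of call and direction found in 11.4% of all genes tested, JUND was highest in number 3, and FOSL1 and ATF3 were highest in number 4. The count rests in part on number 1 and on DU145KO+vector, and the calls of ATF3 and JUND were unsteady in other settings too. With 1 sample left out, ATF3 lost its call in 7 of 12 fits and JUND in 3, while FOSL2 gained one in 1. With DU145KO left out, ATF3 and JUND lost theirs (edgeR adjusted p = 0.25 and 0.268) and FOSL2 was called (0.0352). Without a filter on low counts ATF3 was not called (0.0653). With number 1 left out of all lines, an alternative chosen after seeing the data, 5 genes were called (EGR1, FOS, FOSB, FOSL1 and JUND, against 15.0% of all genes), and with DU145KO+vector left out 4 were called (ATF3, EGR1, IER3 and JUNB, against 14.3%).

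FOS, FOSB and EGR1 held the first 3 ranks of all 14732 genes by the mean deviation of number 1 from the mean of its line. The deviation on the log2 scale was 2.07 ± 0.43 for FOS, 1.48 ± 0.71 for FOSB and 1.33 ± 0.28 for EGR1 (SD over the 3 lines). JUNB, at 0.93 ± 0.15, was at rank 18 and IER3, at 0.43 ± 0.09, at rank 337. At the other end, ATF3 was at rank 14560 with −0.47 ± 0.28 and FOSL1 at rank 13185 with −0.20 ± 0.07. Number 1 was above numbers 2 to 4 in each of the 3 lines for 6 of the 10 genes (EGR1, FOS, FOSB, IER3, JUN and JUNB), against 9.82% of all genes tested. Number 3 was the lowest for FOS (−1.03), FOSB (−0.86), EGR1 (−0.68) and JUNB (−0.49).

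**Figure D2:**
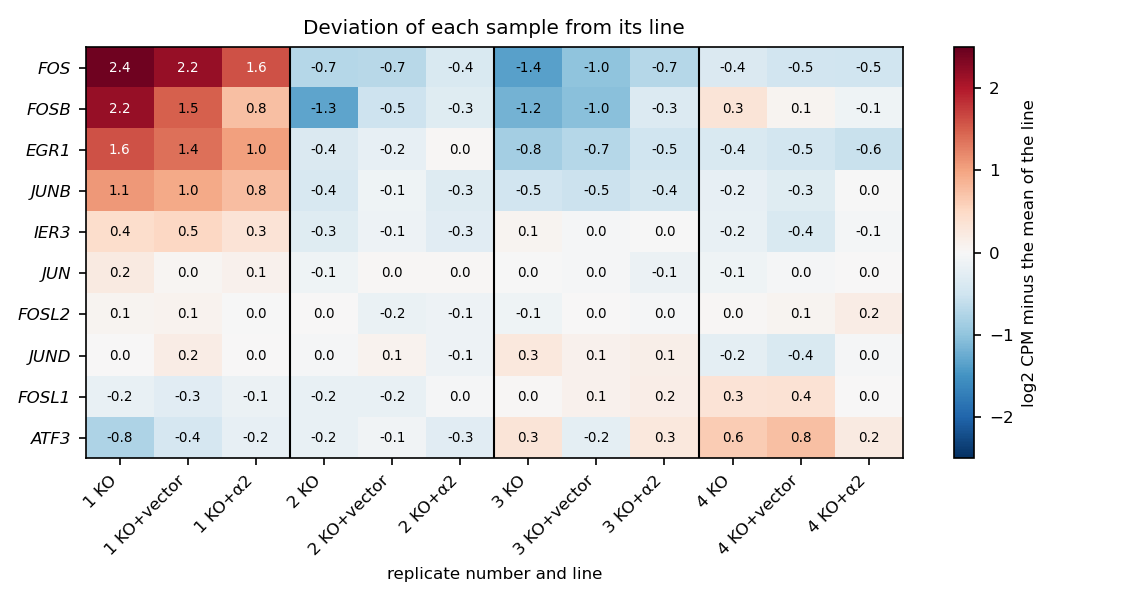
Deviation of each sample from the mean of its line on the log2 CPM scale, with genes in rows and samples in columns grouped by replicate number and line. Red is above and blue below the mean of the line. FOS, FOSB, EGR1 and JUNB are red in the 3 number 1 samples and mostly blue elsewhere, whereas ATF3 and FOSL1 are blue in number 1 and reach their highest mean in number 4.

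Several other values moved with number 1. Its 3 libraries had the lowest TMM factors (0.9583 to 0.9882, against 0.9904 to 1.021 in the others) and the highest share of reads in the 10 most abundant genes (4.31% to 4.49%, against 3.6% to 4.29%). With scaling by library size alone the mean deviation of number 1 was 2.03 for FOS, 1.44 for FOSB, 1.3 for EGR1 and 0.90 for JUNB. The total counts of these libraries, 15403946 to 18375396, lay within the range of the others. Of the 12 heat shock genes, which report protein stress, none was higher in number 1 than in numbers 2 to 4 in every line (9.82% of all genes tested were). Between numbers 8 were called (66.7%, against 35.7% of all genes tested), with 1 of them highest in number 1. Their mean deviation of number 1 ran from −0.42 to 0.20, with a median of −0.08. The summed level of the heat shock genes was 3370 to 3670 CPM in number 1 and 3230 to 4170 CPM in the others. The part of library composition, lane or culture in the result was not tested.

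The replicate number accounted for 95.8% of the sum of squares of log2 CPM over the 12 samples for FOS, 95.3% for JUNB and 92.3% for EGR1. The line accounted for 0.703%, 0.814% and 3.90% of it. For ATF3, FOSB and FOSL1 the number took 75.0%, 74.2% and 72.5%, and for IER3 62.9% with 29.9% for the line. FOSL2, JUND and JUN were the genes with more spread between lines (51.7%, 44.4% and 41.3%) than between numbers (30%, 37.1% and 34.9%). The median gene of the 14732 had 39.0% for the number and 27.8% for the line.

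**Figure D3:**
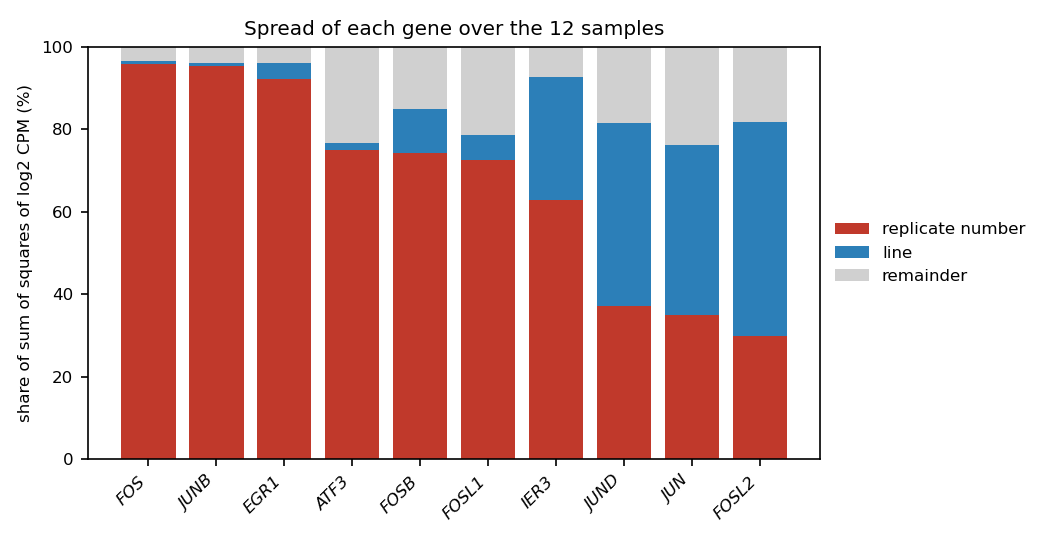
Share of the sum of squares of log2 CPM over 12 samples taken by the replicate number (red), the line (blue) and the remainder (grey), as stacked bars that add up to 100%. The number takes over 92% for FOS, JUNB and EGR1, and the line takes the larger part for FOSL2, JUND and JUN.

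Over the 12 samples, which share lines and numbers, log2 CPM of FOS correlated with JUNB at r = 0.98, with EGR1 at 0.97, with FOSB at 0.88, with IER3 at 0.72 and with JUN at 0.62. FOSL1 and ATF3 correlated with each other at 0.83 and with FOS at −0.49 and −0.60. JUND was close to 0 with FOS (0.09) and nearest to IER3 (0.72). These values describe the 12 samples, in which number 1 held the highest values of FOS, JUNB, EGR1 and FOSB in each line. Of the 12783 genes averaging a log2 CPM of 1 or more, the 3 most like FOS were IER2 (r = 0.979), JUNB (0.976) and EGR1 (0.972), all immediate early genes. IER2 was also among the 3 most like JUNB (0.970) and EGR1 (0.967), next to FOS in both, with HIST1H1C and CD40 as the remaining gene of each. DUSP1, a MAP kinase phosphatase, was most like FOSB (0.917), followed by GNAZ (0.911) and RFX5 (0.910). EFNB2 (0.963), SENP1 (0.961) and GORAB (0.939) were most like ATF3, and RBM4B (0.909), ZNF431 (0.895) and PHIP (0.888) most like FOSL1. For FOSL2 the list was PTRH2, PGK1 and FAM198B (0.939 to 0.926), for JUN it was SFTPD, EPHX2 and SLC2A10 (0.908 to 0.891), for JUND it was IRS2, CTSK and AGAP1 (0.922 to 0.921), and for IER3 it was CLDN23, C14orf79 and LGALS3 (0.953 to 0.940).

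A wider list of 38 other immediate early genes showed part of the pattern. Of these, 20 (52.6%, against 35.7% of all genes tested) differed between numbers. Of the 20 called, 12 were highest in number 1, against 1673 of the 5259 called among all genes tested. Number 1 was above the others in all 3 lines for 9 of them (BTG2, CTGF, CYR61, DUSP1, IER2, IER5, MCL1, NR4A1 and ZFP36), or 23.7% against 9.82% of all genes. IER2, a small nuclear protein gene, had the highest mean deviation of number 1 in the list, 0.83, with 136 CPM in number 1 of DU145KO against 49.1 to 61.7 CPM in the other 3 samples. DUSP1 was at 0.65, the nuclear receptor gene NR4A1 at 0.63, EGR2 at 0.58 and ZFP36, whose protein shortens the life of unstable mRNAs, at 0.46. The list also held the opposite pattern of ATF3. GADD45B, a growth arrest and stress gene, had a mean deviation of −0.92 in number 1 and 0.83 in number 4, and KLF10 one of −0.31 and 0.59.

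For the factors and kinases around these genes the mean deviations of number 1 had a median of 0.00 in the list of SRF, its cofactors and the EGR corepressors (−0.26 to 0.11, 2 of 8 called between numbers) and of 0.00 among 22 MAP kinases, their activators and effector kinases (−0.37 to 0.24, 5 called), beside medians of 0.28 for the 10 genes, 0.14 for the other immediate early genes and 0.01 for all genes tested. The share called between numbers was 25% and 22.7% in these lists, against 35.7% of all genes, and the lists were not tested against each other. Among 13 AP-1 partners and related leucine zipper genes 5 (38.5%) were called, JDP2, ATF4 and ATF6 with their highest mean in number 3, ATF7 in number 2 and ATF5 in number 4. Of 19 reported AP-1 target genes, 13 (68.4%, against 35.7% of all genes) were called between numbers, and 4 of them were highest in number 1 (MMP13, 0.59, CD44, 0.35, CXCL8, 0.3, and TIMP1, 0.18), 5 in number 2, 2 in number 3 and 2 in number 4. MMP1, the interstitial collagenase, was not called between numbers and had a deviation of −0.15 in number 1.

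**Figure D4:**
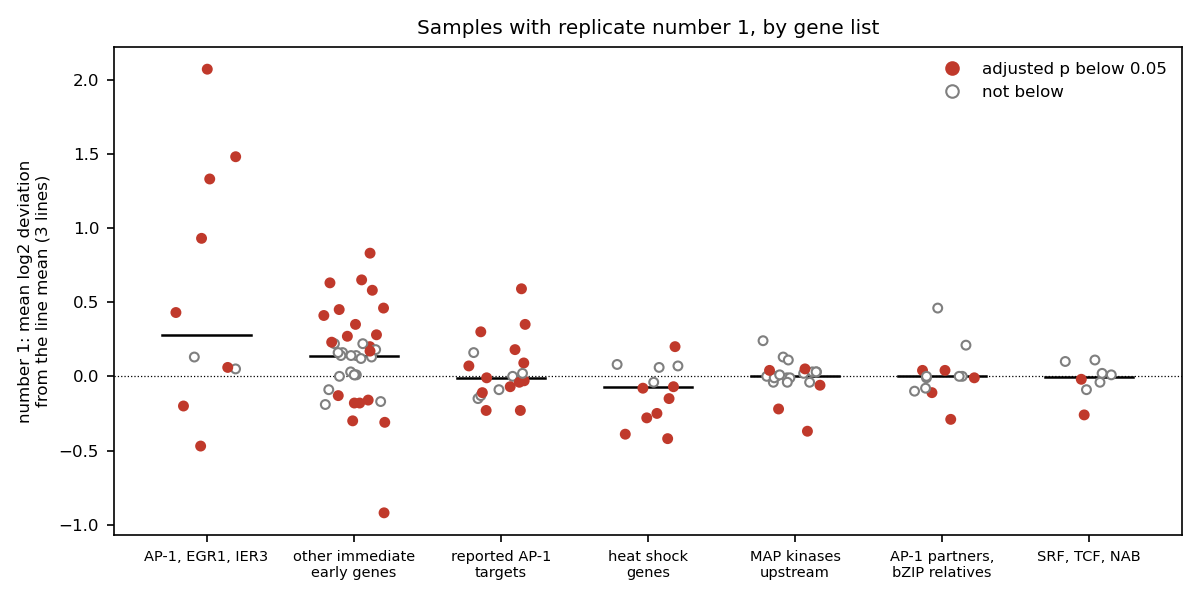
Mean log2 deviation of the number 1 samples from the mean of their line (over 3 lines) for each tested gene of the 10 genes (AP-1, EGR1, IER3) and of 6 other gene lists, with the median of each list as a black line. Filled red points are genes called between replicate numbers. FOS, FOSB, EGR1 and JUNB lie above every point of the other lists, whose highest is IER2 at 0.83.

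The second comparison set DU145KO+α2 against DU145KO+vector, lines transfected separately with the plasmid carrying or lacking α2 cDNA. Each plasmid is represented by 1 line, so an effect of α2 cannot be told apart from a change that arose in making that line. The same holds for each comparison of lines below. In the model with line alone, 0 of the 10 genes was called, against 11.9% of all genes tested (edgeR's quasi-likelihood test, adjusted p below 0.05). At an unadjusted p below 0.05 there were 3 (FOSL2, JUN and JUND), a threshold for which no share of all genes is given. DESeq2 called 1 (JUND, adjusted p = 0.0387, against 13.9% of all genes) and voom with limma called 0. JUND had a log2 fold change of 0.36 (SE 0.12, adjusted p = 0.0692), IER3 of 0.42 (SE 0.21, 0.249), FOSL2 of 0.20 (SE 0.08, 0.138) and JUN of 0.19 (SE 0.08, 0.167). For the genes set apart by number 1 the error was large, with a log2 fold change of −0.09 for FOS (SE 1.07, 95% interval −2.5 to 2.32), −0.07 for FOSB (SE 0.89), 0.15 for EGR1 (SE 0.68) and 0.04 for JUNB (SE 0.46), so a difference of 2-fold in either direction lies within the interval of FOS. FOSL1 (0.10, SE 0.14) and ATF3 (0.05, SE 0.33) were not called. The samples of the 2 lines did not overlap for JUN and JUND, a separation found in 16.9% of all genes tested, and with the higher values in DU145KO+α2 in 8.85%. The epithelial markers moved with the line as well, at a summed 854 to 1170 CPM in DU145KO+α2, 1140 to 1390 CPM in DU145KO+vector and 1210 to 1570 CPM in DU145KO, and their part in the result was not tested.

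Blocking on the replicate number, which sets each sample against the sample of the same number, left 4 of the 10 genes called, against 26.5% of all genes tested, and all 4 were higher in DU145KO+α2, a direction that 12.9% of all genes were called in. The log2 fold change was 0.44 for IER3 (SE 0.07, 95% interval 0.29 to 0.59, adjusted p = 0.000162), 0.37 for JUND (SE 0.08, 0.20 to 0.53, adjusted p = 0.00226), 0.19 for FOSL2 (SE 0.06, adjusted p = 0.0154) and 0.19 for JUN (SE 0.06, adjusted p = 0.0292). Each of these genes was higher in DU145KO+α2 at 4 of 4 numbers, and none reached a 2-fold change. The share of all genes higher at 4 of 4 numbers is not given. The block narrowed the interval of FOS to −0.37 to 0.80 around a log2 fold change of 0.22 (SE 0.24, adjusted p = 0.576), and that of JUNB to −0.12 to 0.29 around 0.08 (SE 0.09, adjusted p = 0.553). EGR1 had 0.28 (SE 0.16, adjusted p = 0.256), FOSB 0.14 (SE 0.41, adjusted p = 0.842), ATF3 0.09 (SE 0.19, adjusted p = 0.761) and FOSL1 0.11 (SE 0.08, adjusted p = 0.350). FOS, EGR1 and JUNB were higher in DU145KO+α2 at 3, 3 and 2 of 4 numbers, and for each of the 3 the exception included number 1, where the DU145KO+vector sample was higher.

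The calls of FOS, EGR1 and JUN depended on number 1. With number 1 left out of all lines and the block kept, an alternative chosen after seeing the data, 5 genes were called (against 19.8% of all genes tested). They were IER3 (log2 fold change 0.51), FOS (0.45, SE 0.11, adjusted p = 0.00862), JUND (0.44), EGR1 (0.40, SE 0.09, adjusted p = 0.00445) and FOSL2 (0.24), all higher in DU145KO+α2 in edgeR's quasi-likelihood test. JUN, called with the block and all numbers, was no longer called. With number 1 left out and no block, 1 gene was called, IER3 (0.51, SE 0.12, adjusted p = 0.0174), against 9.37% of all genes.

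Compared to DU145KO, which shares its DU145KO+α2 samples with the comparison above, 0 of the 10 genes was called in the model with line alone, against 8.17% of all genes tested in edgeR's quasi-likelihood test. FOSL2 had an unadjusted p below 0.05, and DESeq2 and voom with limma called 0. With the block, FOSL2 (log2 fold change 0.20, SE 0.06, adjusted p = 0.0167) and IER3 (0.25, SE 0.07, adjusted p = 0.0175) were higher in DU145KO+α2, 2 of the 10 genes against 22.3% of all genes tested, or 9.93% that were called higher. FOSL2 was the gene of the 10 without overlap between these lines, against 12.9% of all genes and 6.11% with the higher values in DU145KO+α2. JUND had 0.18 (SE 0.08, adjusted p = 0.114), JUN 0.03 (SE 0.06, adjusted p = 0.773) and FOS 0.05 (SE 0.24, adjusted p = 0.922). FOSB had the value furthest from 0, −0.98 (SE 0.37, adjusted p = 0.0919), from 16.3 CPM in number 1 of DU145KO and 3.91 CPM in that of DU145KO+α2, and higher values in DU145KO+α2 at 2 of 4 numbers. With number 1 left out and the block kept, FOS (0.41, SE 0.11, adjusted p = 0.0194) was called beside FOSL2 and IER3, 3 genes against 15.2% of all genes.

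Between the α2 negative lines, DU145KO+vector and DU145KO, 0 of the 10 genes was called, against 2.34% of all genes tested in edgeR's quasi-likelihood test, 0 had an unadjusted p below 0.05, and DESeq2 and voom with limma called 0. The samples of the 2 lines overlapped for all 10 genes, while 8.87% of all genes had no overlap. With the block 0 were called as well, against 13.4% of all genes. At an unadjusted p below 0.05 there were 5, and no share of all genes is given for that threshold. These were FOSB with a log2 fold change of −1.12 (SE 0.37, adjusted p = 0.0815), IER3 with −0.19 (SE 0.07, adjusted p = 0.0842), JUN with −0.15 (SE 0.06, adjusted p = 0.104), JUND with −0.19 (SE 0.08, adjusted p = 0.127) and EGR1 with −0.41 (SE 0.16, adjusted p = 0.146). FOSB, JUN, JUND and EGR1 were lower in DU145KO+vector at each of the 4 numbers and IER3 at 3. The share of all genes lower at each number is not given. With number 1 left out and the block kept, EGR1 was called, lower in DU145KO+vector by a log2 fold change of −0.32 (SE 0.09, adjusted p = 0.0389), against 6.85% of all genes.

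**Figure D5:**
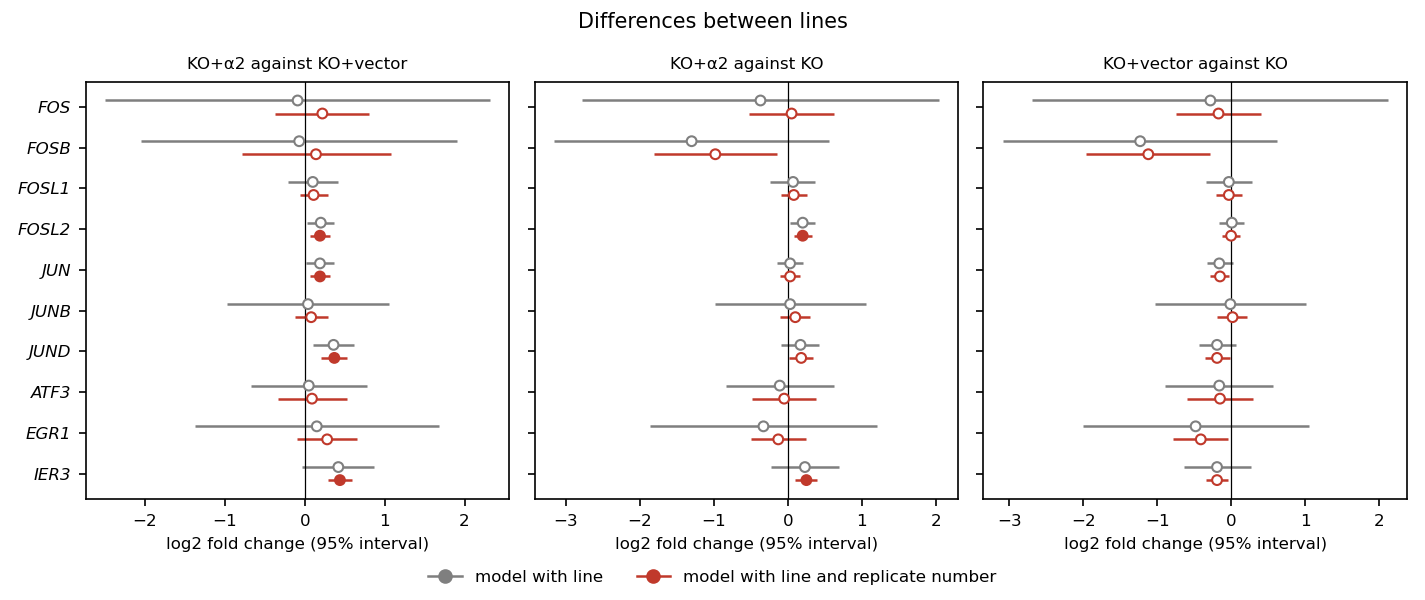
Log2 fold change with its 95% interval of each of the 10 genes in the 3 comparisons of lines, from the model with line (grey) and with line and replicate number (red). Filled points have an adjusted p below 0.05. The intervals of FOS, FOSB, JUNB and EGR1 narrow with the number in the model, and the filled points are FOSL2, JUN, JUND and IER3 in the left panel and FOSL2 and IER3 in the middle one.

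The wider lists give the setting of these values, in the model with line alone. Of the 38 other immediate early genes, 8 differed between DU145KO+α2 and DU145KO+vector, 7 of them higher, where 11.9% of all genes were called. In order of p the first 6 were SGK1, a kinase induced by serum and glucocorticoids (log2 fold change 0.99, SE 0.20, adjusted p = 0.00576), SIK1 (0.84), NR4A2 (0.77), TRIB1 (0.32), CTGF (−0.67, SE 0.17, adjusted p = 0.0194) and GADD45A (0.50). The median of the list was 0.21 and that of the 10 genes 0.12, beside −0.01 for all genes tested. With the block 18 of the 38 were called, 14 higher and 4 lower, against 26.5% of all genes called and 12.9% called higher, and IER2, the gene most like FOS, was at 0.22 (edgeR adjusted p = 0.0498). Compared to DU145KO (8.17% of all genes called), SGK1 was called (0.84). Between the α2 negative lines (2.34% of all genes called) TRIB1 (−0.41) and SIK1 (−0.80) were lower in DU145KO+vector. With the block these counts of 1 and 2 became 9 (5 higher, 4 lower) and 7 (1 higher, 6 lower), where 22.3% and 13.4% of all genes were called.

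MAFK, a small Maf protein gene of the AP-1 related leucine zipper group, was higher in DU145KO+α2 in both comparisons. Its level was 67.8 to 92.1 CPM in DU145KO+α2, 39.9 to 47.9 CPM in DU145KO+vector and 47.5 to 61.4 CPM in DU145KO, with a log2 fold change of 0.87 (SE 0.10, adjusted p = 8.81e-05, edgeR) and 0.55 (SE 0.10, adjusted p = 0.0033). It was the 1 called gene of the 13 against DU145KO+vector, and ATF2 (0.26) was the other called gene against DU145KO. Of all genes tested, 11.9% were called against DU145KO+vector and 8.17% against DU145KO. SRF itself was higher in DU145KO+α2, by 0.25 and 0.28 (adjusted p = 0.0496 and 0.0419), as was NAB1, a corepressor of EGR proteins, by 0.39 and 0.35 (adjusted p = 0.0037 and 0.00985), as the 2 called genes of 8 in each comparison. Among 22 MAP kinase genes, MAP2K5 (0.29) was higher and RPS6KA1 (−0.31), MAPK12 (−0.36) and RPS6KA4 (−0.27) were lower when DU145KO+α2 was set against DU145KO+vector, and RPS6KA5 (0.45) was higher than in DU145KO. Between the α2 negative lines edgeR, DESeq2 and voom with limma called 0 genes of these 3 lists, where edgeR called 2.34% of all genes. At an unadjusted p below 0.05 edgeR had 2 of 13, 0 of 8 and 5 of 22, with no share of all genes given. With the block edgeR called 1 of 13, 0 of 8 and 4 of 22 there (3 higher and 1 lower among the kinases), against 13.4% of all genes. The block called 2 of 13, 3 of 8 and 6 of 22 against DU145KO+vector, where 26.5% of all genes were called. Against DU145KO it called 5 of 13, 2 of 8 and 3 of 22, where 22.3% of all genes were called.

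Of the 19 reported AP-1 target genes, 5 were called against DU145KO+vector, 3 higher and 2 lower, where 11.9% of all genes were called. With the block 7 were called (4 higher, 3 lower), against 26.5% of all genes. Against DU145KO 5 were called (8.17% of all genes), and 10 with the block (5 higher, 5 lower, 22.3% of all genes). Between the α2 negative lines 0 were called (2.34% of all genes), and 3 with the block (13.4%). MMP1 was at 39.8 to 46.8 CPM in DU145KO+α2, 6.40 to 8.97 CPM in DU145KO+vector and 3.02 to 6.48 CPM in DU145KO, with a log2 fold change of 2.39 (SE 0.17, adjusted p = 8.18e-07, edgeR) and 3.07 (SE 0.18, adjusted p = 1.09e-07). The cytokine gene LIF was higher by 0.45 and 0.52, and VEGFA by 0.47 against DU145KO+vector. The urokinase receptor gene PLAUR was lower in DU145KO+α2, with log2 fold changes of −0.57 and −0.62, and against DU145KO so was PLAU (−0.49). The called targets lay in both directions. Of the 12 heat shock genes 0 was called against DU145KO+vector in edgeR's model with line. There 2 had an unadjusted p below 0.05, and DESeq2 and voom with limma called 0. With the block 4 were called, all lower in DU145KO+α2, where 26.5% of all genes were called. Against DU145KO 1 was called, HSPA6 (−0.92), with 0 by DESeq2 and 0 by voom with limma. The block called 5 there, all lower, where 22.3% of all genes were called.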

How the data were processed

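RNA-seq of 12 spheroid samples was analysed, 4 of each line. The authors demultiplexed 50 bp single-end reads with bcl2fastq 1.8.4, aligned them to hg38 with TopHat 2.1.0 and counted unique reads per gene with Subread 1.5.0. The authors deposited these raw counts per gene and RPKM values, which equal the count divided by a sample factor and the gene length. Columns of each sample were matched to the labels by line and replicate number. Counts were TMM normalized, genes were kept by edgeR's filterByExpr (minimum count 10), and all 12 samples were fitted with a robust quasi-likelihood model on line (edgeR 4.0.16, limma 3.58.1, R 4.3.3). Calls had a Benjamini-Hochberg adjusted p below 0.05 over all genes tested, two-sided. Shares of all genes are given for calls and non-overlap, but not for unadjusted p or for direction at each number. Counts of these last kinds do not show whether the genes stand out. Replicate number was tested in a model with line and number. CPM for correlations used a prior count of 2. Fold changes are log2, and p-values measure the spread between these samples.

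Same-numbered samples of different lines deviated together, with r over genes of 0.135 to 0.554 (mean 0.378) in the 12 such pairs. The 36 pairs of different numbers had r of −0.29 to 0.149, so the ranges overlapped. Their mean of −0.126 is no separate evidence, since deviations from the line mean cancel within a line. The numbers were taken to pair the samples on the basis of the same-numbered pairs. A fit with the number as a block is given where it changed a call of a member or a count of a list, the cell type markers apart. Alternatives were DESeq2 1.42.0 (test and size factors), library size alone, voom with limma, other filters, a 2-fold minimum, the compared lines alone and each sample left out. Scripts were tested on simulated data.

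The members and gene lists were chosen with earlier results of these data known. All members are named, as are the called genes with the lowest p, at most 6 per list and comparison, and the 3 genes most like each member. Other genes, among them those named for their deviation in number 1 or for number 1 being above the others, and IER2 with the block, were chosen after their values were seen. Lanes of the samples were not used here. A called gene of the AP-1 target list is counted but not reported here by name.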

Additional observations from a re-analysis of the deposited data

Results flagged for a closer look

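Among the 30 sets of 4 samples (10 genes in 3 lines), 7 had a sample far from the others by Dixon's ratio. This ratio of gap to range, taken on CPM without logs, was above the 95% critical value for 4 samples. About 1.5 such sets would arise by chance if the sets were independent and CPM normally distributed. In all 7 the far sample was the high number 1 sample. The ratio was 0.924 for FOS in DU145KO, 0.944 in DU145KO+vector and 0.933 in DU145KO+α2. For EGR1 it was 0.910 in DU145KO and 0.870 in DU145KO+vector, for JUNB 0.889 in DU145KO and for FOSB 0.847 in DU145KO+α2. The sets share their samples across genes, so 7 against 1.5 is no test of chance. The part of culture, handling or lane was not tested.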

How the results depend on the processing

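Settings that leave number 1 out of all lines were chosen after seeing the data. Of 10 genes, those called between DU145KO+α2 and DU145KO+vector went from 0 to 1 with DESeq2, 4 with the replicate block, 1 without number 1 and 5 without number 1 and with the block. Leaving out 1 sample at a time gave 0 to 1, with JUND called without DU145KO number 3, DU145KO number 4 or DU145KO+vector number 1. Against DU145KO they went from 0 to 2 with the block and 3 without number 1 and with the block, and between the α2 negative lines from 0 to 1 in the latter (leave-one-out 0 to 0 in both). The block changed no other call of the 10 genes. Calls between numbers went from 8 to 5 without number 1 and 4 without DU145KO+vector, and lay between 6 and 8 with 1 sample left out (6 without number 4 of DU145KO or of DU145KO+vector). The cause was not tested.

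No value that turned direction was called by edgeR in the model with line. FOS turned and was called by edgeR without number 1 and with the block. Its adjusted p there was 0.00862 against DU145KO+vector and 0.0194 against DU145KO. For DU145KO+α2 against DU145KO+vector the log2 fold change of FOS became 0.21 with voom, 0.22 with the replicate block, 0.44 without number 1 and 0.45 without it and with the block. That of FOSB became 0.21, 0.14, 0.46 and 0.52 in the same order, and that of ATF3 0.00 without number 1. Against DU145KO, FOS became 0.14, 0.05, 0.38 and 0.41, and EGR1 0.08 in both settings without number 1. Between the α2 negative lines JUNB became 0.02 with voom and the block and 0.07 in both settings without number 1, and FOSL1 0.00 in both.

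With 1 sample left out, log2 fold changes against DU145KO+vector ranged from −0.95 to 1.31 for FOS, −0.40 to 0.80 for FOSB, −0.28 to 0.49 for JUNB, −0.07 to 0.38 for ATF3 and −0.31 to 0.87 for EGR1. Against DU145KO they ranged from −1.23 to 1.25 for FOS, −0.01 to 0.12 for JUN, −0.29 to 0.56 for JUNB, −0.29 to 0.13 for ATF3 and −0.79 to 0.56 for EGR1. Between the α2 negative lines they ranged from −1.68 to 1.33 for FOS, −2.10 to 0.05 for FOSB, −0.16 to 0.10 for FOSL1, −0.03 to 0.06 for FOSL2, −0.45 to 0.51 for JUNB, −0.48 to 0.08 for ATF3 and −1.19 to 0.40 for EGR1. Of 930 recomputed values of the genes, 827 kept direction and side of the threshold, and of 910 list counts 718 stayed within 1.5 times. Scaling moved the median of all genes by at most 0.015.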
